A study of Mus musculus with 32 samples.

Results

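The neutrophil granule and lineage genes are a set of 36 mouse genes that encode the contents of neutrophil granules, other abundant neutrophil proteins, a few regulators of the granulocyte lineage and receptors of the mature cell. They were found by their Ensembl identifiers in 3 count tables, of 74021 genes for microglia sorted by LAG-3, 74016 genes for microglia of 2 disease stages and 74021 genes for spinal cord, and all 36 had a row in each table. The set was chosen from differences already seen between the LAG-3-sorted libraries, so the values and calls of those libraries are given as a description, and nothing is read from the calls.

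Microglia came from lumbar cords of SOD1G93A animals, an ALS model that carries a human mutant SOD1 transgene, and of non-transgenic WT mice. They were gated by FACS as CD11b+/CD45int cells after perfusion with PBS. In the first table, P140 SOD1G93A microglia were separated into LAG-3-low (n = 5) and LAG-3-high (n = 5) cells beside WT microglia (n = 4), whose age the labels do not give. In the second table, CD11b+/CD45int cells were not split by LAG-3 and came from SOD1G93A mice that were LAG-3+/+ or LAG-3-/-, at P120 and at P140 (n = 3 in each of 4 groups), the LAG-3-/- mice being knockouts of the immune checkpoint receptor gene Lag3. The third table holds whole lumbar cord of SOD1G93A mice, LAG-3+/+ or LAG-3-/-, at P140 (n = 3 each). All groups except WT carried the transgene, and cells or tissue of non-transgenic LAG-3-/- mice were not part of the comparison. The labels do not say whether libraries with the same replicate number came from the same animal, and p-values measure the spread between these libraries.

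Libraries held 9403475 to 22850586 counts in the sorted table, 23981406 to 49512632 in the stage table and 19430102 to 26994524 in the cord table. At these depths 3 counts correspond to 0.131 to 0.319, 0.0606 to 0.125 and 0.111 to 0.154 CPM, a count scaled to the depth of its library, and counts of 3 or fewer were treated as the floor of detection. Levels are given as CPM with TMM factors unless stated otherwise. Lag3 stood at 53.3 to 62.9 CPM in P120 LAG-3+/+, at 24.5 to 28.1 CPM in P140 LAG-3+/+ and at no more than 0.462 CPM in the 6 LAG-3-/- microglia libraries, and at 43.4 to 74.5 against 5.5 to 5.72 CPM in the cord. It was at 0.509 to 10 CPM in WT, 34.8 to 57.8 CPM in LAG-3-low and 146 to 195 CPM in LAG-3-high microglia. Genes that mark microglia were high in every microglia library, with a summed level of 8 genes between 16700 CPM in a LAG-3-low library and 43600 CPM in a P140 LAG-3+/+ library.

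Neutrophils fill their granules in order as they mature in the bone marrow. Promyelocytes make the primary (azurophil) granule proteases and myeloperoxidase, myelocytes and metamyelocytes make the secondary (specific) granule proteins such as lactoferrin, and band cells make tertiary (gelatinase) granules. The transcripts of each class are largely lost at the following step, while receptors for chemokines and formyl peptides are gained late. C/EBP epsilon is needed for secondary granule gene expression, PU.1 acts on many myeloid promoters, and GFI1 is a repressor in the granulocyte lineage. The members were placed in 6 classes: primary granule (4 genes), early lineage (4), secondary granule and same stage (10), tertiary granule (2), later products (8) and receptors (8). Some members lie close together in the genome (GRCm39), such as Prtn3 with Elane and S100a8 with S100a9, and others share a chromosome at larger distances. Prtn3 and Elane lie on the plus strand of chromosome 10, from 79710310 to 79719008 and from 79722081 to 79724051. Camp, Ngp and Ltf lie on chromosome 9, from 109676442 to 109678685, from 110248815 to 110252086 and from 110848339 to 110871835. S100a8 and S100a9 lie on chromosome 3, from 90567118 to 90578128 and from 90599931 to 90603071, and Csf3r on chromosome 4, from 125918262 to 125938236.

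Promoters from 250 bases before to 50 bases after the gene start were found for 30 of the 36 members in RefSeq (GRCm38.p6). Each was searched on both strands for TTNNGNAAT, a core that C/EBP factors bind, for GAGGAAGT, a PU.1 site, and for TAAATCAC, a GFI1 core. The C/EBP letters occurred in 7 members (Ms4a3, Ltf, Ngp, Cd177, Chil3, Itgb2l and S100a9), against 13.1% of all 27025 genes with a promoter (11.5% of their 32851 promoters). Of these 7 members, 5 belong to the 9 secondary granule members with a promoter. The PU.1 letters occurred in 9 members (Mpo, Elane, Prtn3, Olfm4, Itgb2l, Mmp8, Ly6g, S100a8 and Ltb4r1), against 3.69% of all genes (3.2% of promoters). Of these 9 members, 3 are among the 4 primary granule members. No primary granule promoter held the C/EBP letters, and only Fpr1 held the GFI1 letters, found in 0.688% of all genes (0.578% of promoters). The promoters of 2 primary and 2 secondary granule genes are shown because these classes differ most in where the members were detected. The windows are chr11:87793534-87793833 for Mpo, chr10:79886062-79886361 for Elane, chr9:110419558-110419857 for Ngp and chr9:111019042-111019341 for Ltf, all on the plus strand and written 5′ to 3′. Capitals mark the PU.1 letters in Mpo and Elane and the C/EBP letters in Ngp (on the reverse strand) and Ltf, which begin 224, 85, 139 and 75 bases before the gene start.
Mpo: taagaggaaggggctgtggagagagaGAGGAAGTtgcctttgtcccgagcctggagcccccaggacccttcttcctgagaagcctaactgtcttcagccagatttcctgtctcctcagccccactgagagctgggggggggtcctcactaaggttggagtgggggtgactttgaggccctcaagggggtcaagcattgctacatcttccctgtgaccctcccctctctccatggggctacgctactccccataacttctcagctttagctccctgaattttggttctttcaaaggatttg
Elane: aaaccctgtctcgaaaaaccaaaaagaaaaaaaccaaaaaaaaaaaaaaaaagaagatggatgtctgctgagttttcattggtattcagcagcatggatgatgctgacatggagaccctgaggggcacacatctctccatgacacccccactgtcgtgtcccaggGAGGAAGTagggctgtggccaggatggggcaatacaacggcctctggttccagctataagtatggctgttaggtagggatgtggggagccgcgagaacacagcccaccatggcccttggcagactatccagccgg
Ngp: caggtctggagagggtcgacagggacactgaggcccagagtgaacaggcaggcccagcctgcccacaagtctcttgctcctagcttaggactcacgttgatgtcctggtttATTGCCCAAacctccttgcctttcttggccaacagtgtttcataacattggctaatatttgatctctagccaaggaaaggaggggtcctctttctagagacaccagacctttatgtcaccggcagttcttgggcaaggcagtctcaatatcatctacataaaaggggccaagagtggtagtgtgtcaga
Ltf: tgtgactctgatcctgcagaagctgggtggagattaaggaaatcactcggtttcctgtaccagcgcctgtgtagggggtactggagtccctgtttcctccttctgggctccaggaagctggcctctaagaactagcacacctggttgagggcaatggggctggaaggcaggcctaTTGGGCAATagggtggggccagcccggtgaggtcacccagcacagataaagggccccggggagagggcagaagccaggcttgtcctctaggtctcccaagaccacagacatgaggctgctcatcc
A match describes letters in this window and was not tied to any level measured here.

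In LAG-3-low microglia the members made up 5.65% ± 2.12 (SD, n = 5) of all counts, with 34 to 36 members above 3 counts in each library. In WT microglia they made up 3.32% ± 2.8 (n = 4), and in LAG-3-high microglia 0.0498% ± 0.0058 (n = 5). A single member, Csf3r, the receptor for granulocyte colony-stimulating factor, supplied 96.8 to 98.2% of the members' counts in the LAG-3-high libraries. Without it, the other 35 members summed to 29500 to 80800 CPM (of the library total, without TMM factors) in LAG-3-low, 6540 to 63100 in WT and 7.84 to 16.1 in LAG-3-high microglia. In bulk samples, fewer cells of a type and less RNA per cell cannot be told apart.

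**Figure D1:**
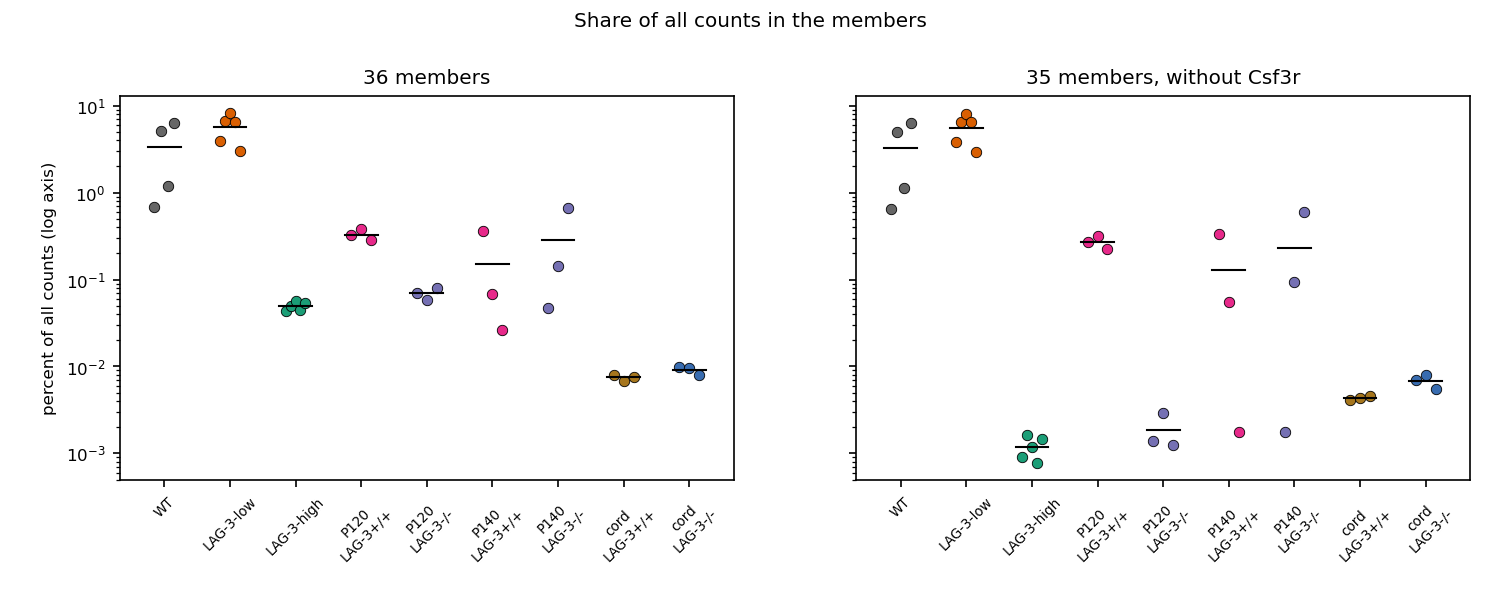
Percent of all counts in the 36 members (left) and in the 35 members without Csf3r (right), on log axes, with a point for each library and a line at the mean of each group. Without Csf3r, the LAG-3-high libraries and the P120 LAG-3-/- libraries sit between 0.000784 and 0.00293%, while the LAG-3-low libraries sit between 2.95 and 8.08%.

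Primary granule genes were found in part of the LAG-3-low libraries. Mpo, myeloperoxidase, was at 0.197, 452.4, 1.81, 162.9 and 0.179 CPM in LAG-3-low replicates 1 to 5, at no more than 0.372 CPM in WT and at no more than 0.0737 CPM in LAG-3-high. Elane, neutrophil elastase, was at 0, 299.4, 0, 115.7 and 19.8 CPM in LAG-3-low, at 0, 3.22, 0.0565 and 0 CPM in WT and at 0 in all 5 LAG-3-high libraries. Prtn3, proteinase 3, was at 0.92, 34.95, 1.56, 44.1 and 2.66 CPM in LAG-3-low, at 0, 6.71, 0.0565 and 0 CPM in WT and at 0 in LAG-3-high. The 3 genes were highest in LAG-3-low replicates 2 and 4, and the spread within that group was larger than its mean for Mpo (123.5 ± 197 CPM) and Elane (87 ± 128 CPM). Ctsg, cathepsin G, another protease of these granules, was at 1.86 CPM in LAG-3-low replicate 2 and at 0 in the other 13 libraries.

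The early lineage genes were present in every LAG-3-low library except for Gfi1. Cebpe, which encodes C/EBP epsilon, was at 114, 197.3, 169.5, 212.6 and 91 CPM in LAG-3-low, at 0.051, 50.6, 5.7 and 0.571 CPM in WT, and at 0.2 CPM in 1 and 0 in 4 LAG-3-high libraries. Ms4a3, a membrane protein of granulocyte and monocyte progenitors, was at 17.1, 42.4, 19, 65.7 and 7.5 CPM in LAG-3-low, at 0, 20.3, 0 and 28.3 CPM in WT and at 0 in LAG-3-high. The LAG-3-high libraries did not overlap with LAG-3-low for either gene. Fcnb, which encodes the lectin ficolin B, was at 318.7, 681.6, 270.5, 620.2 and 215.9 CPM in LAG-3-low, at 0, 252.8, 0 and 202.7 CPM in WT and at no more than 0.0616 CPM in LAG-3-high, a mean at least 2150-fold below that of LAG-3-low. Gfi1 was low throughout, at 0 to 8.19 CPM in LAG-3-low.

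Secondary granule genes carried much of the signal in both groups that had it. Ltf, lactoferrin, was at 4905, 9494, 12650, 8328 and 3834 CPM in LAG-3-low, at 111.1, 5986, 428.2 and 375.7 CPM in WT, and at 1.29 CPM in 1 and 0 in 4 LAG-3-high libraries. Camp, the cathelicidin antimicrobial peptide, was at 2150, 4009, 4757, 4370 and 1944 CPM in LAG-3-low, at 703.6, 3740, 1210 and 12240 CPM in WT, and at 0.246 CPM in 1 and 0 in 4 LAG-3-high libraries. Ngp, neutrophilic granule protein, was at 11100, 20370, 24800, 20000 and 8748 CPM in LAG-3-low, at 1676, 15290, 4223 and 22400 CPM in WT and at 0 to 1.66 CPM in LAG-3-high. LAG-3-high replicate 3 held the 1 value above the floor for Ltf and Camp and the highest of the group for Ngp. Lcn2 (lipocalin 2), Cd177, Hp (haptoglobin) and Itgb2l, an integrin beta chain, lay in LAG-3-high at least 5270-fold, 6890-fold, 2490-fold and 1320-fold below their LAG-3-low means. Olfm4, olfactomedin 4, differed from its class: it was at 54.9, 52.3, 103.2, 0 and 6.32 CPM in LAG-3-low and at 4.56, 11.3, 3.14, 2.98 and 7.33 CPM in LAG-3-high, groups that overlap, and at 0, 0, 0.169 and 76.9 CPM in WT.

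Among the tertiary granule genes, Mmp8, neutrophil collagenase, was at 468.6, 602.9, 1140, 139.3 and 198.2 CPM in LAG-3-low, at 1.48, 0, 5.93 and 0 CPM in WT and at 2.87, 5.21, 2.46, 1.14 and 6.41 CPM in LAG-3-high. WT and LAG-3-high libraries overlapped for Mmp8, and both lay below every LAG-3-low library. Mmp9, gelatinase B, was at 212, 393, 720.6, 222.9 and 155.8 CPM in LAG-3-low, at 36.2, 2.79, 187.9 and 0 CPM in WT and at 0 in LAG-3-high. Mmp8 has also been placed in secondary granules, and counted there it left a tertiary share of 0.196% of the members' level per length in LAG-3-low in place of 0.587%.

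Later products include the calprotectin subunits. S100a8, a subunit of calprotectin, was at 4899, 8814, 12050, 8896 and 4348 CPM in LAG-3-low, at 2060, 6799, 2139 and 23530 CPM in WT and at 0 to 1.01 CPM in LAG-3-high. S100a9, its partner, was at 2693, 4873, 6432, 4699 and 2261 CPM in LAG-3-low, at 1196, 2919, 1015 and 10970 CPM in WT and at 0 to 0.554 CPM in LAG-3-high. WT and LAG-3-low overlapped for both subunits, and WT replicate 4 was above every other library. Ly6g, the surface antigen used to identify mouse neutrophils, was at 22.5, 76.4, 129.7, 28.4 and 38.3 CPM in LAG-3-low, at 23.7, 41.7, 21.9 and 0 CPM in WT and at 0 in LAG-3-high, so WT replicate 4 lacked Ly6g counts while holding the most S100a8. Wfdc21, Retnlg, Lrg1, Padi4, which encodes a histone-citrullinating enzyme, and Serpinb1a, an inhibitor of the granule proteases, lay in LAG-3-high at least 1670-fold, 2530-fold, 1230-fold, 642-fold and 2150-fold below their LAG-3-low means. Ly6g and Chil3 belong to families with close copies, between which estimated counts may divide reads.

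The receptors separated into Csf3r and the rest. Cxcr2, the receptor for neutrophil-attracting chemokines, was at 48.4, 61.2, 73.4, 33.3 and 20.1 CPM in LAG-3-low, at 15.5, 5.95, 6.63 and 18.9 CPM in WT and at 1.64, 1.8, 2.34, 2.26 and 1.28 CPM in LAG-3-high, 3 groups that do not overlap. Csf3r was at 536.6, 590.6, 698, 525.2 and 613.6 CPM in LAG-3-low and at 515.5, 564.5, 655.8, 480.4 and 616.2 CPM in LAG-3-high, which overlap, and at 337, 548.6, 508.5 and 119.6 CPM in WT. Il1r2 (an interleukin 1 decoy receptor), Trem3, Fpr2 (a formyl peptide receptor) and Ltb4r1 (a leukotriene B4 receptor) were at 0 in all 5 LAG-3-high libraries and at least 188-fold, 530-fold, 137-fold and 538-fold lower there than in LAG-3-low. Csf3r had the smallest fold difference of means of all 36 members, 592.8 ± 69.3 CPM in LAG-3-low against 566.5 ± 71.5 CPM in LAG-3-high.

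**Figure D2:**
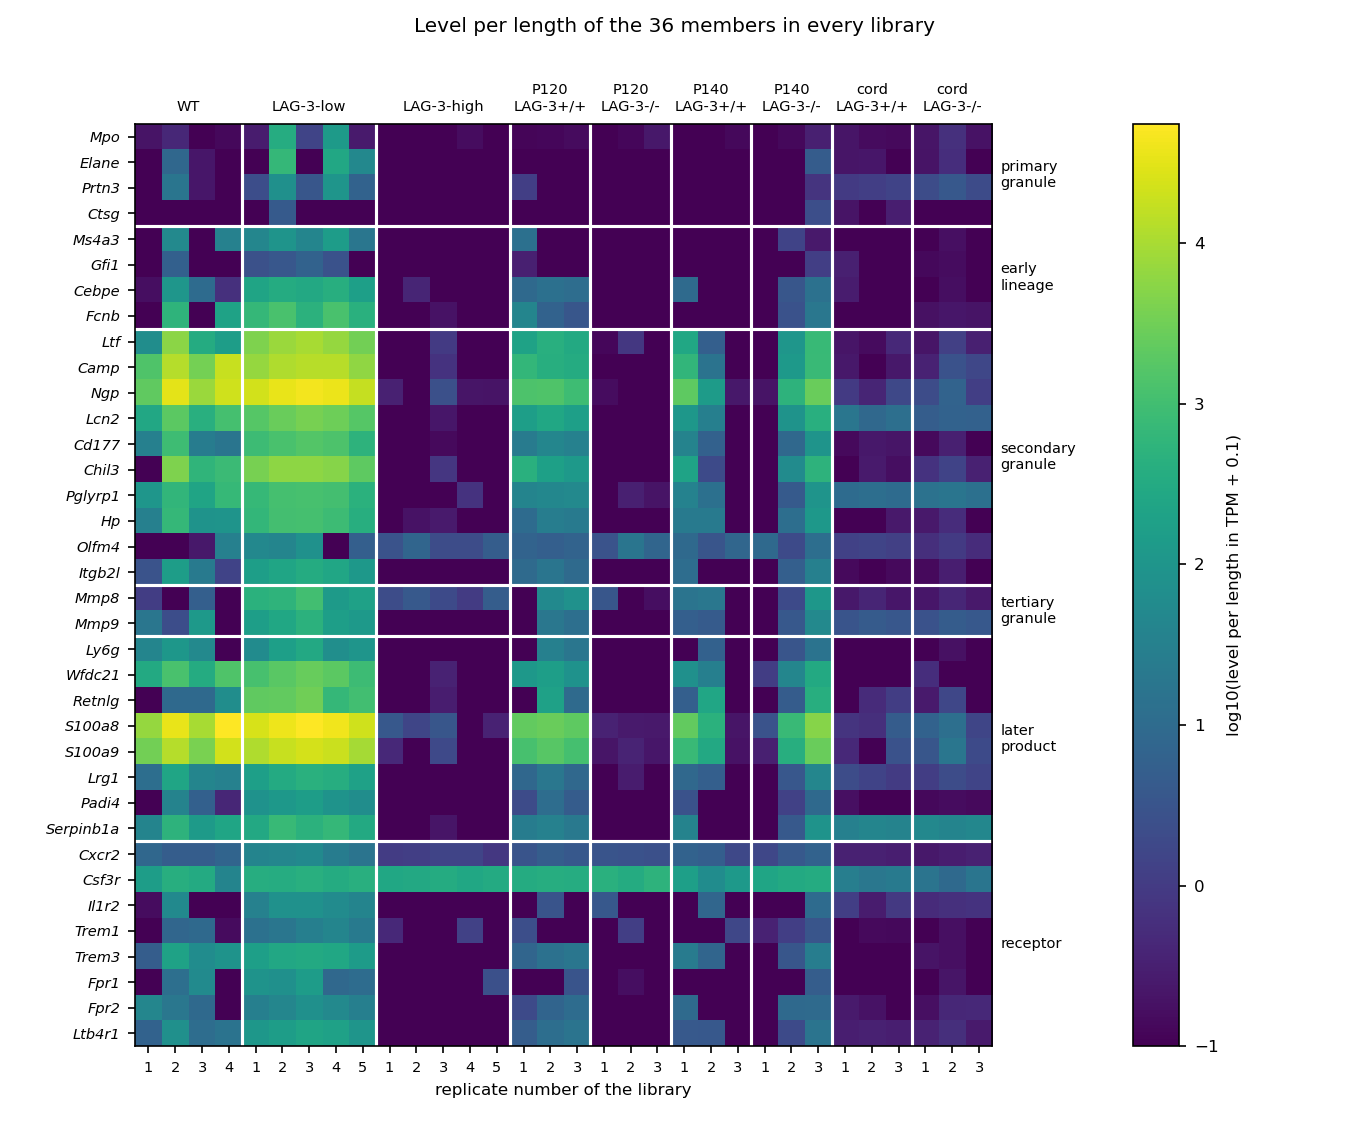
Level per transcript length of each of the 36 members (rows, by class) in each of the 32 libraries (columns, by group and replicate number), as log10(TPM + 0.1). Rows other than Csf3r are dark in the LAG-3-high and P120 LAG-3-/- columns, apart from low values such as Cxcr2 and Olfm4, and the primary granule rows are bright in LAG-3-low replicates 2 and 4.

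With calls at an adjusted p below 0.1 and a log2 fold change beyond 1 (edgeR's quasi-likelihood test), 34 members were tested in the sorted table, Mpo and Ctsg being above the count minimum in too few libraries. Of these, 30 were lower and 0 higher in LAG-3-high microglia when set against LAG-3-low, where 2.67% of the 16508 tested genes were lower and 0.818% higher. Those not called were Gfi1, Olfm4, Csf3r and Fpr1. Against WT, 29 were lower and 0 higher in LAG-3-high, with backgrounds of 14.9% and 12.1%. LAG-3-low had 8 higher (Cebpe, Cd177, Hp, Mmp8, Retnlg, Lrg1, Cxcr2 and Ltb4r1) and 0 lower than WT, with backgrounds of 10.9% and 11%. These counts follow from how the members were chosen and are not a result about them. With means at or under 3 counts set to that floor, the median log2 ratio of the members was -9.49 for LAG-3-high against LAG-3-low, -6.8 for LAG-3-high against WT and 1.84 for LAG-3-low against WT.

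Expressed per transcript length (TPM), which allows levels of different genes to be compared, S100a8 was highest in LAG-3-low with 35880 TPM, followed by Ngp with 31340, S100a9 with 16580, Camp with 10240 and Ltf with 6403 TPM. Their spreads over the 5 libraries overlapped for S100a8 and Ngp (SD 12900 and 11100 TPM). Secondary granule genes held 49% ± 1.22 (SD, n = 5) and later products 48.2% ± 1.51 of the members' TPM in LAG-3-low. Early lineage genes held 1.03% ± 0.325, receptors 0.899% ± 0.187, tertiary granule genes 0.587% ± 0.263 and primary granule genes 0.254% ± 0.347. Among granule genes alone, 98.3% ± 0.668 of the TPM was secondary, 1.18% ± 0.537 tertiary and 0.498% ± 0.676 primary, so the primary share ran from 0.00568% to 1.59% between libraries while the secondary share ran from 97.2% to 98.9%. In WT the secondary genes held 40.6% ± 11.2 and the later products 58% ± 11.5 of the members' TPM (n = 4).

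**Figure D3:**
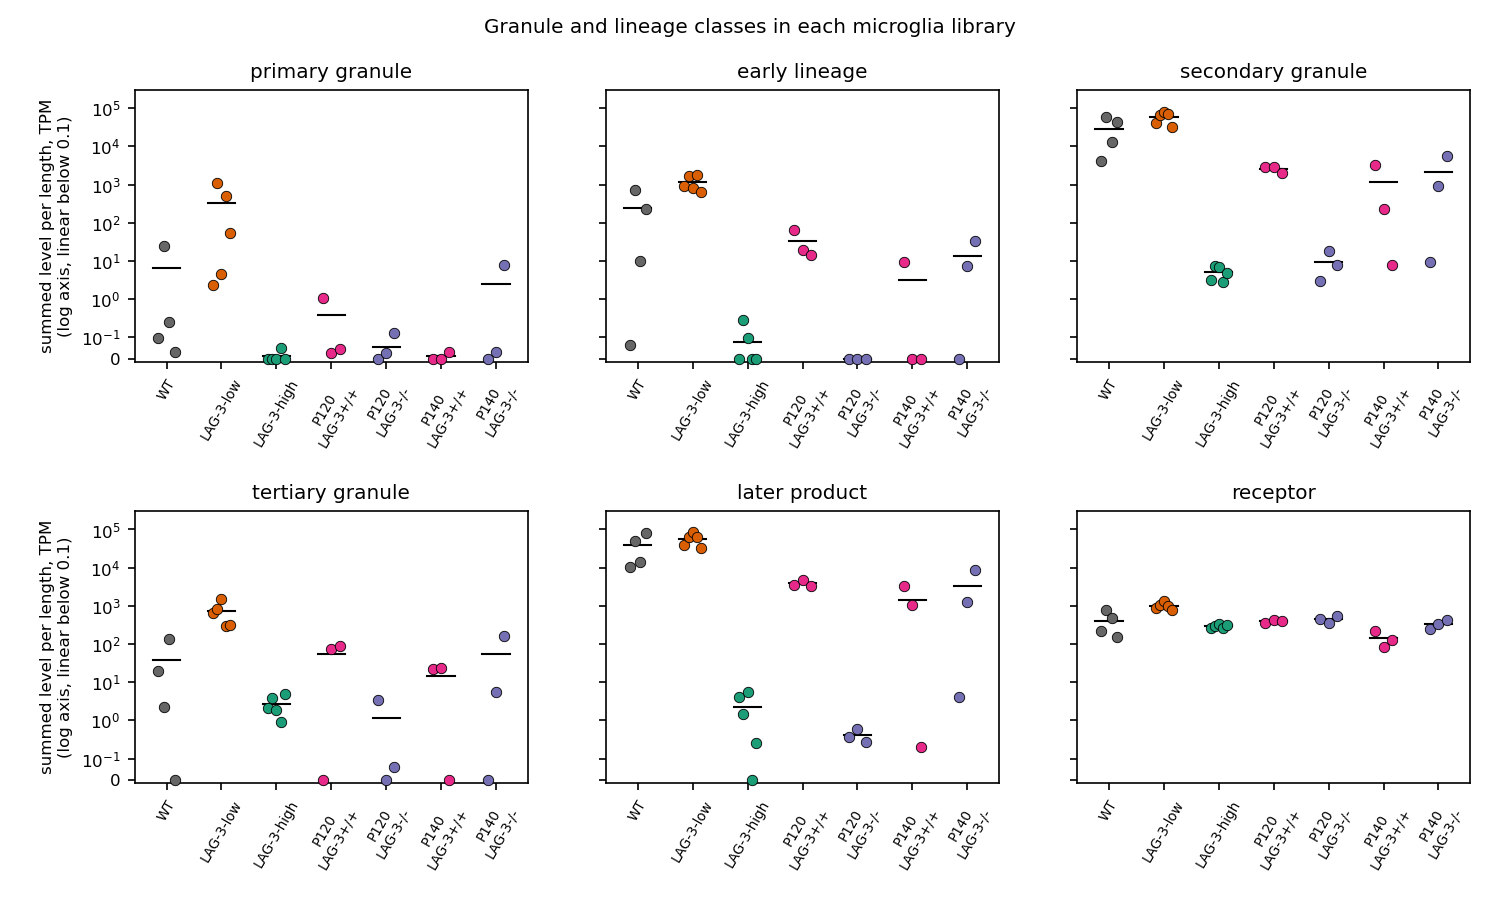
Summed level per length (TPM, log axis that is linear below 0.1) of each class of members in each microglia library, with a line at the group mean. LAG-3-low libraries span 2.38 to 1100 TPM for primary granule genes but 32000 to 80600 TPM for secondary granule genes, and receptor levels vary least between groups.

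The LAG-3-low libraries also differed in the balance of classes. Mpo, Elane, Ms4a3, Cebpe and Fcnb were each highest in replicates 2 and 4, while Ltf, Ngp, S100a8, S100a9, Mmp8, Mmp9, Ly6g and Cxcr2 were each highest in replicate 3. Some members did not follow this division. The early lineage gene Gfi1 was highest in replicate 3 (8.19 CPM), the later product Serpinb1a in replicate 2 (648.3 CPM) and the receptor Trem1 in replicate 4 (52.95 CPM). In replicates 1 to 5, Mki67, a proliferation marker, was at 71.8, 95.8, 43, 106.4 and 13.2 CPM, and the progenitor genes Kit and Prss57, named after their values were seen, were at 12.1, 29.8, 11.8, 23.2 and 8.46 CPM and at 7.91, 16, 11.4, 23.9 and 7.52 CPM. These 3 genes were likewise highest in replicates 2 and 4, but other genes of their lists were not. Myb was highest in replicates 4 and 1 (25.4 and 22.3 CPM), Cd34 in replicates 5 and 4 (679.3 and 674.9 CPM). Mcm5 was highest in replicates 3 and 4 (78.6 and 76.6 CPM). The part of these genes in the result was not tested. In LAG-3-high, Kit and Prss57 were at 0 in all libraries, Myb at no more than 0.142 CPM and Mki67 at 0 to 21.1 CPM. Cd34 and Sox4 of the progenitor list went the other way. Cd34 was at 1173 to 1333 CPM in LAG-3-high against 584.3 to 679.3 CPM in LAG-3-low, and Sox4 at 15.4 to 27.4 against 6.23 to 14.3 CPM.

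Marker lists of other blood cells were read beside these levels. The 14 other neutrophil genes summed to 1580 to 5040 CPM in LAG-3-low, 489 to 2020 CPM in WT and 230 to 269 CPM in LAG-3-high, with 0, 5 and 6 genes at 0 in every library. Clec5a alone supplied 213.8 to 250.8 CPM of the LAG-3-high sums. Anxa1, annexin A1, was at 928 to 3253 CPM in LAG-3-low and at no more than 1.34 CPM in LAG-3-high. The 8 monocyte genes summed to 408 to 1330 CPM in LAG-3-low, 51.5 to 317 CPM in WT and 416 to 1030 CPM in LAG-3-high, with 0, 1 and 3 genes at 0 in every library. Ly6c2 and F13a1, named after their values were seen, were at 53.5 to 129.2 CPM and 41.8 to 233.7 CPM in LAG-3-low and at no more than 0 and 0.187 CPM in LAG-3-high, and Ccr2, a receptor of inflammatory monocytes, was at 33.7 to 250.5 CPM against 0.0681 to 5.77 CPM. Fn1 and Ms4a4c of the same list, also named after their values were seen, overlapped between these groups, Fn1 at 106.7 to 712.2 CPM in LAG-3-low and 392.9 to 983.9 CPM in LAG-3-high and Ms4a4c at 23 to 61.5 CPM and 20.4 to 39.3 CPM. The 12 cell cycle genes summed to 215 to 1110 CPM in LAG-3-low, 163 to 436 CPM in WT and 138 to 272 CPM in LAG-3-high. The 8 microglia genes summed to 16700 to 24200 CPM, 28000 to 36200 CPM and 24600 to 27400 CPM in the same groups. T cell genes reached at most 3.82 CPM in sum and basophil and mast cell genes at most 2.71 CPM in any sorted library. The part of other cells in the members' levels was not tested.

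WT libraries did not share 1 pattern over the members. Replicate 2 held early and primary genes (Cebpe at 50.6 CPM, Fcnb at 252.8 CPM, Prtn3 at 6.71 CPM). Replicate 4 held high Camp, Ngp, S100a8 and S100a9 but no Mmp8, Mmp9 or Ly6g counts. It shared 2 early lineage genes with replicate 2, Fcnb at 202.7 CPM and Ms4a3 at 28.3 CPM (20.3 CPM in replicate 2). Across members above the floor, the log2 ratio of WT replicate 4 to the LAG-3-low mean had a median of 0.646 for the 8 members shorter than 1000 bases and of -4.38 for the 7 members longer than 2500 bases. In WT replicates 1, 2 and 3 these medians were -2 and -4.65, -0.55 and -1.14, and -2.03 and -3.01. These are values across genes of 1 library, which share its depth and its amplification, and they carry no test.

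Microglia that were not split by LAG-3 allow genotype and stage to be compared in libraries other than those of the LAG-3 sort, although earlier results of these libraries were also known when the members were chosen. At P120 the members made up 0.33% ± 0.0463 (SD, n = 3) of counts in LAG-3+/+ and 0.0696% ± 0.0108 in LAG-3-/- microglia. Csf3r supplied 95 to 98.4% of the members' counts in the P120 LAG-3-/- libraries, and the other 35 members summed to 12.6 to 29.3 CPM there, against 2270 to 3170 in P120 LAG-3+/+. On the same unscaled CPM, at P140 they summed to 3320, 558 and 17.7 CPM in LAG-3+/+ replicates 1 to 3 and to 17.5, 931 and 6020 in LAG-3-/- replicates 1 to 3. Each P140 group therefore had a library near the level of the P120 LAG-3-/- group and a library at or above the P120 LAG-3+/+ group, and the genotypes overlapped at P140.

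The secondary granule genes showed this pattern in each library. Ngp was at 748.1, 745.7 and 451.9 CPM in P120 LAG-3+/+, at 0.0233, 0 and 0 CPM in P120 LAG-3-/-, at 1564, 134 and 0.115 CPM in P140 LAG-3+/+ and at 0.0789, 306.6 and 1380 CPM in P140 LAG-3-/-. Ltf was at 244.3, 480.4 and 338.3 CPM in P120 LAG-3+/+, at 0.0233, 0.89 and 0 CPM in P120 LAG-3-/-, at 449.1, 11.7 and 0 CPM in P140 LAG-3+/+ and at 0, 139.1 and 827.2 CPM in P140 LAG-3-/-. Camp was at 216.1, 128.3 and 103.3 CPM in P120 LAG-3+/+, at 0 in P120 LAG-3-/-, at 293.2, 9.21 and 0 CPM in P140 LAG-3+/+ and at 0, 46.8 and 245.8 CPM in P140 LAG-3-/-. For all 3 genes the P120 groups did not overlap and the P140 groups did. At P120, Ngp, Chil3, Camp, Lcn2 and Cd177 were at least 7980-fold, 2020-fold, 1840-fold, 947-fold and 468-fold lower in LAG-3-/- than in LAG-3+/+. Olfm4 again went its own way, at 8.16, 6.15 and 7.48 CPM in P120 LAG-3+/+, 2.98, 20.4 and 7.22 CPM in P120 LAG-3-/-, 16.3, 6.88 and 15.7 CPM in P140 LAG-3+/+ and 15.9, 2.51 and 13.3 CPM in P140 LAG-3-/-.

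S100a8 and S100a9 moved with the secondary granule genes. S100a8 was at 501.3, 549.7 and 410.8 CPM in P120 LAG-3+/+, at 0.0251 to 0.0465 CPM in P120 LAG-3-/-, at 728.5, 183.7 and 0.0384 CPM in P140 LAG-3+/+ and at 0.868, 186.2 and 1040 CPM in P140 LAG-3-/-. S100a9 was at 295.9, 415.5 and 256.3 CPM, at 0.0233 to 0.0659 CPM, at 280.5, 128.9 and 0.0384 CPM and at 0.0789, 108.9 and 646.3 CPM in the same order of groups. At P120 both were at least 5990-fold and 3970-fold lower in LAG-3-/- than in LAG-3+/+. Ly6g was at 0, 12.6 and 6.66 CPM in P120 LAG-3+/+, at 0 in P120 LAG-3-/-, at 0, 4.44 and 0 CPM in P140 LAG-3+/+ and at 0, 1.48 and 5.84 CPM in P140 LAG-3-/-. Ly6g was thus absent from P120 LAG-3+/+ replicate 1, which held Ngp, Camp and S100a8 at levels like its group.

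Primary granule members were at or near the floor in most of these libraries, and early lineage members ran from 0 to 21.7 CPM. Cebpe was at 5.04, 6.81 and 5.61 CPM in P120 LAG-3+/+, at 0 in P120 LAG-3-/-, at 7.43, 0 and 0 CPM in P140 LAG-3+/+ and at 0, 1.98 and 6.99 CPM in P140 LAG-3-/-. Fcnb was at 21.7, 3.02 and 1.59 CPM in P120 LAG-3+/+, at 0 in P120 LAG-3-/- and in P140 LAG-3+/+, and at 0, 1.53 and 9.2 CPM in P140 LAG-3-/-. Ms4a3 reached 5.7 CPM in P120 LAG-3+/+ replicate 1 and at most 0.644 CPM elsewhere. Fcnb was at 0 in all 3 P140 LAG-3+/+ libraries, including replicate 1, which had the highest Ngp of the 3. Of the primary granule genes, Elane and Ctsg had counts in P140 LAG-3-/- replicate 3 alone, at 1.85 and 0.94 CPM, Prtn3 was at 0.494 CPM in P120 LAG-3+/+ replicate 1 and at 0.269 CPM in P140 LAG-3-/- replicate 3 and at 0 elsewhere, and Mpo was at no more than 0.256 CPM in any library. In P120 LAG-3+/+ the granule genes' TPM was 97.7% ± 2.19 secondary, 2.29% ± 2.21 tertiary and 0.0137% ± 0.021 primary (n = 3).

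Mmp8 was at 0, 54.2 and 76.3 CPM in P120 LAG-3+/+, at 3.05, 0 and 0.0501 CPM in P120 LAG-3-/-, at 24.6, 35.3 and 0 CPM in P140 LAG-3+/+ and at 0, 2.17 and 107.7 CPM in P140 LAG-3-/-. Mmp9 was at 0, 25.4 and 16 CPM, at 0, at 10.7, 11.2 and 0 CPM and at 0, 5.73 and 67 CPM in the same order of groups. Both tertiary granule genes were at 0 in P120 LAG-3+/+ replicate 1, the library with the most Fcnb and Ms4a3. Cxcr2 was at 3.99, 6.1 and 4.62 CPM in P120 LAG-3+/+, 3.41, 3.51 and 2.59 CPM in P120 LAG-3-/-, 12.3, 12.1 and 3.65 CPM in P140 LAG-3+/+ and 3.02, 5.75 and 7.93 CPM in P140 LAG-3-/-, never at 0. Csf3r was at 538.2, 564 and 505.5 CPM in P120 LAG-3+/+, 570.6, 506 and 630.4 CPM in P120 LAG-3-/-, 384.8, 167.5 and 317.8 CPM in P140 LAG-3+/+ and 527.5, 528.9 and 491.4 CPM in P140 LAG-3-/-. The 3 P140 LAG-3+/+ libraries were below all others for Csf3r, a gap that the granule genes did not show.

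**Figure D4:**
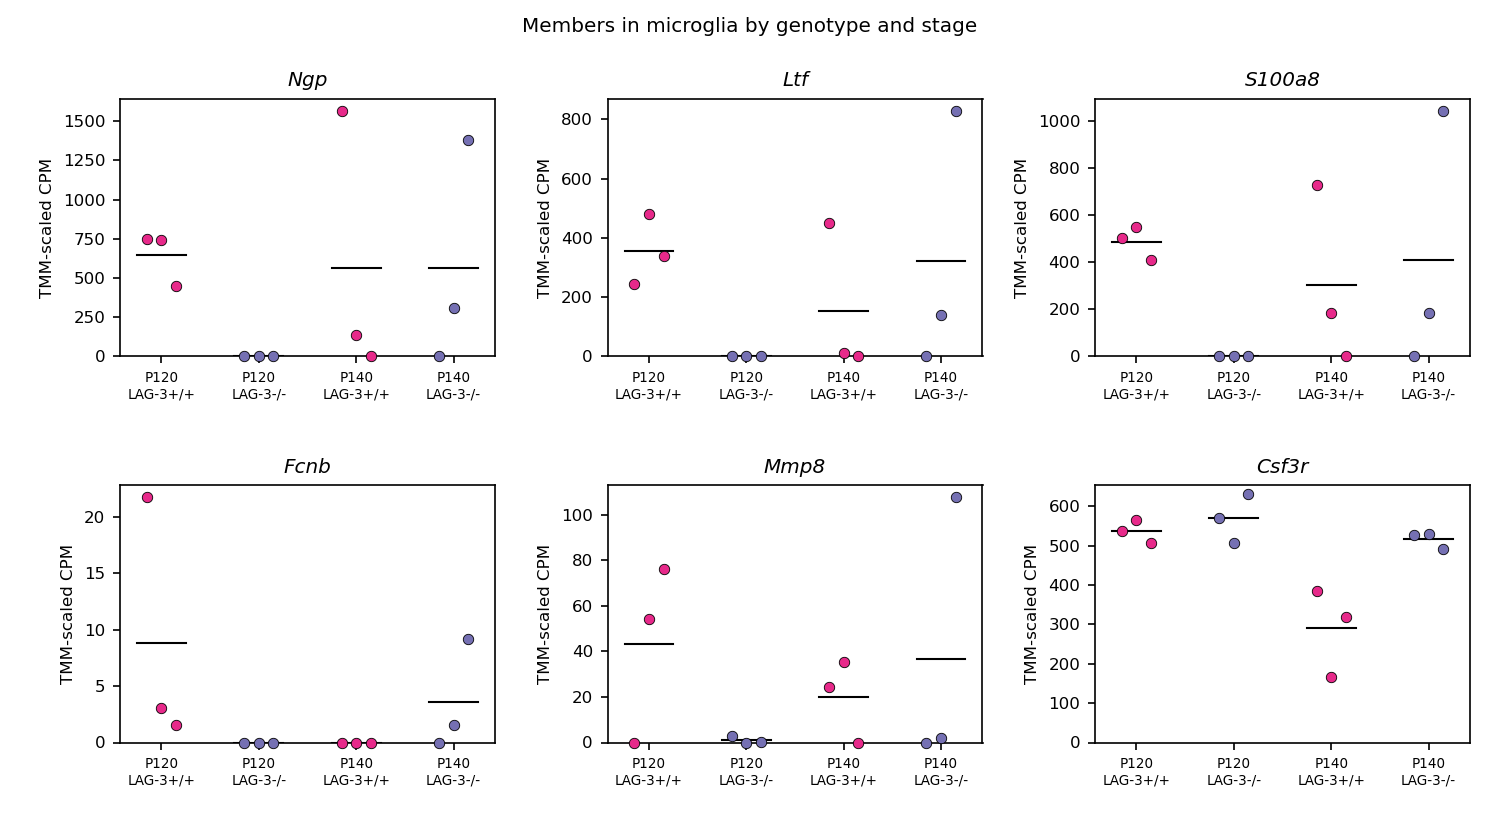
TMM-scaled CPM of 6 members in microglia by genotype and stage, with a point for each library and a line at the mean (n = 3). For Ngp, Ltf and S100a8 the P120 LAG-3-/- libraries lie at the axis. For Ngp and S100a8 both P140 groups spread from the axis to above the P120 LAG-3+/+ libraries. For Ltf only P140 LAG-3-/- does so, as P140 LAG-3+/+ reaches 449.1 CPM against 480.4 CPM in P120 LAG-3+/+ replicate 2. Csf3r is lowest in P140 LAG-3+/+ at 167.5 to 384.8 CPM.

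Between genotypes at P120, 0 of 29 tested members passed an adjusted p of 0.1 in either direction with edgeR's quasi-likelihood test over all 4 groups, and the adjusted p of each was 1. In that fit 0% of the 18669 tested genes were higher and 0.0107% lower in LAG-3-/-. At an unadjusted p under 0.05, 23 of the 29 members were lower, against 1.9% of all genes, with the smallest p of 0.00148 for S100a8. DESeq2 called 20 members lower, against 0.53% of all genes, and edgeR fitted to the 2 P120 groups alone called 16 of 24 tested members lower, against 0.168%. In P120 LAG-3-/-, 25 of the 36 members were at or under the floor while LAG-3+/+ was not, Camp, Lcn2, Cd177 and Chil3 among them. Such members entered the fit of the 2 groups through LAG-3+/+ alone. They could be called only lower there, so that count does not test their direction. Every LAG-3-/- library lay below every LAG-3+/+ library for 21 of the 29 tested members, against 6.64% of all tested genes, and 2 members were at 0 in all 6 libraries. The count thus depended on the tool and on whether the P140 libraries entered the fit. With means at or under 3 counts set to that floor, the median log2 ratio of the members with a ratio was -6.57.

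Between stages in LAG-3+/+ microglia, Csf3r and Fcnb fell and no tested member rose by edgeR or DESeq2. Csf3r went from 535.9 ± 29.3 CPM at P120 to 290 ± 111.3 CPM at P140 (log2 fold change -0.89 ± 0.25 (SE), edgeR adjusted p = 0.0312). Fcnb went from a mean of 8.77 CPM to 0 (edgeR adjusted p = 0.0474), and lost its call when P120 replicate 1, P140 replicate 2 or P140 replicate 3 was left out (adjusted p = 0.111, 0.101 and 0.106). These 2 of 29 compare with 15.5% of all genes lower and 11.9% higher. Cxcr2 had a log2 difference of 0.93 ± 0.58 (SE, edgeR adjusted p = 0.293). Leaving out each replicate in turn gave 1 to 7 members lower, the 7 of 33 tested coming without P140 LAG-3+/+ replicate 1, the library with the high granule levels, where 15% of all genes were lower.

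Between stages in LAG-3-/- microglia, 0 of 29 members passed with edgeR, where 0% of all genes were higher and 0% lower, and the smallest adjusted p of a member was 0.475 (S100a8, S100a9 and Ngp). At an unadjusted p under 0.05, 23 members were higher at P140, against 6.57% of all genes, and DESeq2 called 22 higher, against 1.92%. Every P140 library lay above every P120 library for 4 members, Ngp, Wfdc21, S100a8 and S100a9, against 7.38% of all genes. In P140 replicate 1, Ngp and S100a9 held 2 counts each, under the floor of 3 counts. P120 LAG-3-/- replicate 2 also held 2 counts of S100a9, so for these 2 genes the separation is not above the floor. With the floor in place, the median log2 ratio of the members was 5.6.

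Between genotypes at P140, Csf3r rose in LAG-3-/- microglia (515.9 ± 21.3 against 290 ± 111.3 CPM, log2 fold change 0.83 ± 0.25 (SE), edgeR adjusted p = 0.0822), and 0 members fell by edgeR or DESeq2. This 1 of 29 compares with 7.22% of all genes higher and 3% lower. The call was lost without P140 LAG-3+/+ replicate 2 or 3 or without P140 LAG-3-/- replicate 2 or 3 (adjusted p = 0.136, 0.15, 0.253 and 0.198), with the log2 fold change between 0.56 and 1.09 over all replicates left out. Fcnb had an edgeR adjusted p of 0.114 and passed with DESeq2. Ngp had a log2 fold change of -0.01 ± 1.96 and S100a8 of 0.43 ± 1.78, intervals that span large differences in either direction. In the test of whether the genotype difference changed with stage, 0 members passed with edgeR (smallest adjusted p = 0.185 for Fcnb, S100a8 and S100a9), where 0.161% of all genes were higher and 0.0107% lower. At an unadjusted p under 0.05, 22 members had a positive interaction, against 9.94% of all genes, and DESeq2 called 20, against 4.87%. Leaving out each replicate in turn gave 0 to 15 edgeR calls, the 15 of 33 tested coming without P140 LAG-3-/- replicate 1, the library with the lowest granule levels of its group, where 5.79% of all genes were called higher. Without P140 LAG-3+/+ replicate 1 there were 2, and without any other library 0.

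Marker lists of other cells were read beside these libraries. Anxa1 was at 92.7, 197.8 and 89.8 CPM in P120 LAG-3+/+, at no more than 0.033 CPM in P120 LAG-3-/-, at 275, 22.7 and 0 CPM in P140 LAG-3+/+ and at 0, 31.3 and 292 CPM in P140 LAG-3-/-. The 14 other neutrophil genes summed to 306 to 545, 216 to 250, 387 to 711 and 332 to 649 CPM in these groups, with 4, 6, 5 and 4 genes at 0 in every library. Clec5a, which microglia also express, supplied 183 to 243.8, 198.2 to 223.3, 377.6 to 448 and 247 to 414.9 CPM of these sums. The 8 monocyte genes summed to 96.9 to 151, 95.3 to 307, 122 to 151 and 163 to 532 CPM, with 1, 4, 1 and 0 genes at 0 in every library, and in P140 LAG-3-/- replicate 3 Ly6c2, Ccr2 and F13a1 were at 44.5, 36.6 and 89.1 CPM, while no other stage library held more than 7.58, 3.15 and 3.59 CPM of them. The 12 cell cycle genes summed to 315 to 605 CPM in P120 LAG-3+/+, 189 to 262 CPM in P120 LAG-3-/-, 468 to 617 CPM in P140 LAG-3+/+ and 531 to 775 CPM in P140 LAG-3-/-. The part of these cells in the members' values was not tested.

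The mix of members in the libraries that held them was compared with that of the LAG-3-low mean over all 36 members, on log2(TPM + 0.1), as a description across genes that share a library. Pearson's r was 0.733 to 0.852 in the 3 P120 LAG-3+/+ libraries, 0.802 and 0.687 in P140 LAG-3+/+ replicates 1 and 2, and 0.83 and 0.87 in P140 LAG-3-/- replicates 2 and 3. It was -0.106 in P140 LAG-3+/+ replicate 3 and 0.0669 in P140 LAG-3-/- replicate 1. Among the WT libraries it was 0.686 to 0.813. The 4 P140 libraries with 558 or more CPM in the 35 members had the higher r, and the 2 with 17.7 or fewer had the lower. A library with most members at 0 has almost no mix to correlate. This order therefore follows from the levels and is not a result about a shared mix.

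In whole spinal cord at P140 the members made up 0.00747% ± 0.000665 of counts in LAG-3+/+ and 0.00909% ± 0.000929 in LAG-3-/- (SD, n = 3 each), and 25 of the 36 had too few counts to be tested. Prtn3 and Ngp rose in LAG-3-/- cord. Prtn3 was at 0.299, 0.387 and 0.507 CPM in LAG-3+/+ and at 1.2, 2.01 and 0.851 CPM in LAG-3-/- (log2 fold change 1.78 ± 0.42 (SE), edgeR adjusted p = 0.00638), without overlap. Ngp was at 0.374, 0.129 and 0.78 CPM in LAG-3+/+ and at 1.49, 4.22 and 0.55 CPM in LAG-3-/-, which overlap (log2 fold change 2.29 ± 0.83, edgeR adjusted p = 0.0675). These 2 of 11 tested members compare with 4.37% of the 17702 tested genes higher and 3.15% lower, and 0 members were called lower by edgeR or DESeq2. Leaving out LAG-3-/- replicate 2, the library with the highest Ngp and S100a9, brought the Ngp log2 fold change to 1.21 and ended its call (adjusted p = 0.191), and Prtn3 kept its call without any 1 library (log2 fold change 1.35 to 2.0).

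A second group of members was higher in LAG-3-/- cord by less than the fold required for a call. Serpinb1a was at 21.4, 27.4 and 27.2 CPM in LAG-3+/+ and at 53.6, 40.1 and 36.8 CPM in LAG-3-/- (log2 fold change 0.78 ± 0.16, edgeR adjusted p = 0.00298). Pglyrp1, a peptidoglycan recognition protein of secondary granules, was at 2.51, 2.88 and 2.61 CPM in LAG-3+/+ and at 5.66, 6.24 and 3.8 CPM in LAG-3-/- (log2 fold change 0.97 ± 0.22, edgeR adjusted p = 0.00582). Neither gene's groups overlapped. Mmp9 was higher (log2 fold change 0.52, edgeR adjusted p = 0.0905), S100a8 and S100a9 had log2 fold changes of 2.33 ± 1.07 and 3.37 ± 1.40 that did not pass (edgeR adjusted p = 0.138 and 0.12), and Lrg1 one of 0.57 (adjusted p = 0.27). S100a9 was at 0.0748, 0 and 0.585 CPM in LAG-3+/+ and at 1.09, 5.37 and 0.45 CPM in LAG-3-/-, so the spread within LAG-3-/- was larger than its mean (2.3 ± 2.67 CPM).

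Lcn2, which astrocytes also make under injury, had a mean difference of the other sign, from 5.76, 2.71 and 4.41 CPM in LAG-3+/+ to 2.52, 3.12 and 2.25 CPM in LAG-3-/- (log2 fold change -0.70 ± 0.28, edgeR adjusted p = 0.0656), short of the fold for a call and with groups that overlap. Olfm4 was at 1.16, 1.42 and 1.17 CPM against 0.801, 1.22 and 0.5 CPM (log2 fold change -0.54, edgeR adjusted p = 0.255) and Csf3r at 35.7, 23.3 and 30 CPM against 31.9, 17 and 24.6 CPM (log2 fold change -0.28, edgeR adjusted p = 0.38). Among the members too low to test, Mpo was at 0.039 to 0.112 CPM in LAG-3+/+ and at 0.172, 0.75 and 0.1 CPM in LAG-3-/-, Elane reached 0.237 CPM, and Ltf, Camp and Chil3 were at 1.7, 1.07 and 1.11 CPM in LAG-3-/- replicate 2. Every LAG-3-/- library lay above every LAG-3+/+ library for 4 of the 11 tested members (Prtn3, Pglyrp1, Mmp9 and Serpinb1a), against 25.5% of all tested genes, and for 3 members too low to test (Fcnb, Camp and Chil3).

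**Figure D5:**
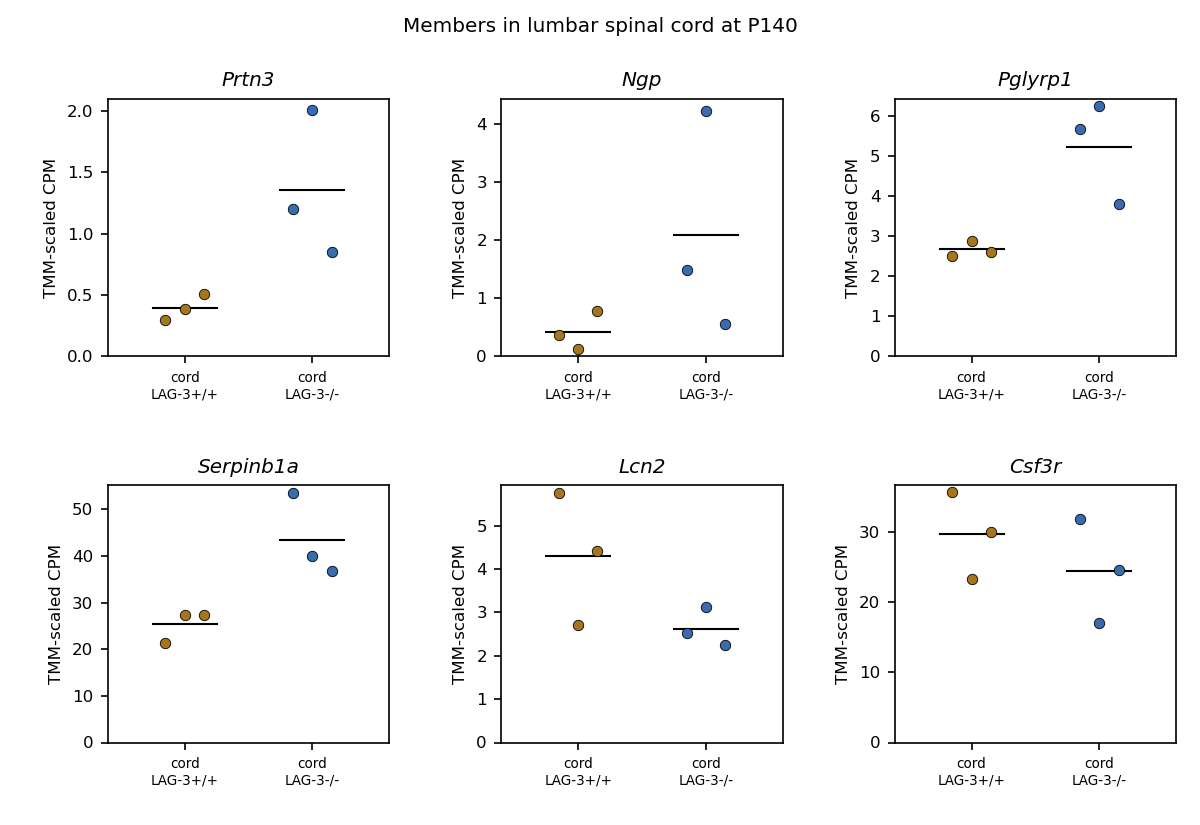
TMM-scaled CPM of 6 members in P140 lumbar spinal cord of both genotypes, with a point for each library and a line at the mean (n = 3). The groups do not overlap for Prtn3, Pglyrp1 and Serpinb1a, overlap for Ngp, Lcn2 and Csf3r, and the means of Lcn2 and Csf3r are lower in LAG-3-/-.

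Marker lists of other cell types were read beside the cord values. The summed level of 5 oligodendrocyte genes was 14400 to 15700 CPM in LAG-3+/+ and 20500 to 28600 CPM in LAG-3-/-, that of 8 microglia genes 1230 to 1560 against 873 to 1200 CPM, that of 8 monocyte genes 200 to 254 against 135 to 148 CPM, that of 4 astrocyte genes 9440 to 11200 against 5740 to 9940 CPM, that of 12 erythroid genes 152 to 153 against 125 to 295 CPM and that of platelet genes 2.69 to 3.59 against 4.21 to 9.91 CPM. The 14 other neutrophil genes summed to 34.9 to 35.4 CPM in LAG-3+/+ and 29.5 to 35.3 CPM in LAG-3-/-, with 4 and 5 genes at 0 in every library, and were mostly Mxd1 (14.6 to 20.6 CPM over the 6 libraries) and Clec5a (4.45 to 11.4 CPM). Tfrc supplied 91.7 to 139.6 CPM of the erythroid sums, and Fn1 (69.7 to 171.8 CPM) and Vcan (25.8 to 52.5 CPM) most of the monocyte sums. The haemoglobin gene Hbb-bs was at 11.3, 3.65 and 8.24 CPM in LAG-3+/+ and at 14.4, 70.3 and 14.6 CPM in LAG-3-/-. Its highest value was in LAG-3-/- replicate 2, the library with the highest Ngp and S100a9. Alas2 (erythroid) and Gp9 (platelet) were called higher in LAG-3-/- cord, and 0 genes of these 2 lists lower. The part of these cells in the members' differences was not tested. The correlation of the members' mix with LAG-3-low microglia was 0.12 to 0.342 in LAG-3+/+ cord and 0.331 to 0.572 in LAG-3-/- cord.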

How the data were processed

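RNA-seq reads were trimmed by the authors with Trim Galore 0.6.7, quantified with Salmon 1.9.0 against GRCm39 and summed to genes with tximport in R 4.2.1, according to the submitters' processing notes and the study's methods. The deposited values are estimated counts per gene, not normalized, for each library. Microglia libraries were made by full-length amplification of low-input mRNA and cord libraries with a directional kit, so levels were not compared between the tables by any test. Amplification of few cells can lose or inflate low transcripts, and the floors cover counting error only. SDs give the spread between libraries. Each SE is the absolute log2 fold change divided by the square root of F in edgeR's quasi-likelihood test. It comes from the fit of all groups of a table, not from the compared libraries alone.

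Counts were rounded and tested with edgeR 4.0.16 (filterByExpr, TMM, quasi-likelihood test, Benjamini-Hochberg adjustment over all tested genes) in R 4.3.3, with 1 fit per table. A call needed an adjusted p below 0.1, and in the sorted and cord tables also a log2 fold change beyond 1. Genes passing the filter numbered 16508, 18669 and 17702. Names and lengths came from GENCODE, where 71, 66 and 71 identifiers (sorted, stage and cord table) had no entry. Levels per length are counts divided by the length of the canonical transcript and scaled to a constant sum (TPM). Alternatives were DESeq2 1.42.0, other scalings and filters, fits of the compared groups alone, a replicate block and each replicate left out. The fits were tested on simulated data.

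The members, their classes, the motifs and the marker lists were chosen with earlier results of these data known. Values in every library were planned for 15 members, for the 3 with the smallest adjusted p in each tested comparison, and for those that went against the others. Genes outside the set were named from the marker lists. Samples were grouped by the labels, and no table column was left without a sample.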

Additional observations from a re-analysis of the deposited data

Results flagged for a closer look

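In 11 of 51 groups of 4 or 5 libraries, 1 library stood apart from the others by Dixon's ratio at the 95% level. Chance alone gives about 1 of 20 groups only for independent, normally distributed values. Here the groups share libraries, and a single value above 0 among zeros has a ratio of 1 by construction. The number of groups is therefore no measure of an excess over chance. In WT replicate 2 the values that stood apart were Elane (3.22 CPM), Prtn3 (6.71 CPM), Cebpe (50.6 CPM), Ltf (5990 CPM) and the share of primary granule genes in the members' level per length (0.023%), all far above the other 3 WT libraries. In WT replicate 4 it was Olfm4, at 76.9 CPM.

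In LAG-3-high replicate 3, Camp (0.246 CPM), Ngp (1.66 CPM), Ltf (1.29 CPM) and S100a9 (0.554 CPM) were above the other LAG-3-high libraries, at levels far below those of any LAG-3-low library. In LAG-3-low replicate 2, Ctsg (1.86 CPM) was the 1 value above 0 among the 14 sorted libraries. What set these libraries apart was not tested.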

How the results depend on the processing

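None of the alternative values that were compared was marked as reversed. A count of called members has no direction to change, and only part of the members were followed singly. The absence of reversals therefore does not cover members that were not followed, and it is not a test of their direction. Among alternative values of counts, medians and shares, 290 stayed within their limits and 42 moved, and among those of single members 256 kept their call, 17 lost it and 20 gained one. With DESeq2, members called numbered 22 higher between stages in LAG-3-/-, 20 lower between genotypes at P120, 2 higher between genotypes at P140 and 20 in the interaction. A fit of the compared groups alone gave 16 lower at P120 and 0 higher at P140, and a median of -12.65 for LAG-3-high against WT (-11.57 in the fit of all groups). An adjusted p below 0.05 left 0 at P140 and 1 in the cord. Without a filter on low counts the interaction had 1 and the cord 6. Leaving out each replicate gave 1 to 7 lower between stages in LAG-3+/+ (9.3 to 15% of all genes), 0 to 2 higher between genotypes at P140 (0.41 to 11.9%), 0 to 15 in the interaction (0 to 5.79%) and 1 to 6 in the cord (3.56 to 5.67%).

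Same-numbered libraries did not deviate together on average (mean r 0.014, -0.00325 and 0.000988 in the sorted, stage and cord tables). This does not show whether they came from the same animal, since libraries of 1 animal need not deviate together after sorting and amplification. A fit with the replicate block gave 1 member lower between stages in LAG-3+/+, 0 higher at P140 and 1 in the cord.

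In LAG-3-low, secondary granule genes held 61.5% of the members' level with exon-union lengths and 67.9% as CPM without a length correction, tertiary genes 1.61% as CPM and 0.196% with Mmp8 counted as secondary. In P120 LAG-3+/+ the secondary share was 48.2% and 48.9% and the tertiary share as CPM 2.01%. Without Csf3r the members' share of counts was 0.00119% in LAG-3-high, 0.271% in P120 LAG-3+/+, 0.00185% in P120 LAG-3-/-, and 0.00435% and 0.00677% in LAG-3+/+ and LAG-3-/- cord, an alternative chosen after seeing the data. Without S100a8 and S100a9 it was 0.241% in P120 LAG-3+/+. Omitting TMM factors moved the median log2 difference of all genes to -0.401 (from -0.024) for LAG-3-high against LAG-3-low, -0.702 (from -0.219) between stages in LAG-3+/+ and -0.127 (from 0.002) in the cord, without changing the Csf3r and Fcnb calls. Depth limits the primary granule genes outside LAG-3-low and most members in the cord.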
